A study of Mus musculus with 18 samples.

Results

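The dendritic cell markers followed here in mouse kidney RNA are Flt3, Itgax, Zbtb46, Clec9a, Batf3, Itgae, Cd209a, Clec10a and Siglech. They are 9 of the 55385 genes of the deposited tables, taken by gene symbol. All 9 are reported whatever their values, but they were chosen with earlier results of these data known. All 9 passed the filter on low counts that left 17575 genes, but Siglech did so only through the groups where its counts were higher. Dendritic cells sample their surroundings for foreign and dying material and present it to T cells. Conventional dendritic cells of type 1 take up dead cells and cross-present antigen to CD8 T cells, those of type 2 mainly prime CD4 T cells, and plasmacytoid dendritic cells are a major source of type I interferon after viral sensing. In a healthy kidney such cells lie in the interstitium beside a much larger macrophage population.

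PolyA RNA was sequenced from whole kidney of 18 untreated mice, 17.1 to 18.0 weeks old, with 3 males and 3 females in each of 3 groups. The Wild-type group was of strain C57BL/6J. The Dp16 group models trisomy 21: its mice carry in every cell an extra copy of a large part of mouse chromosome 16 that matches human chromosome 21, and this part includes the interferon receptor genes Ifnar1, Ifnar2, Ifngr2 and Il10rb. Dp16 2xIFNRs mice carry the same extra segment with the dosage of those receptor genes normalized, so a comparison with Dp16 asks what the extra receptor copies add. The strain of the Dp16 and Dp16 2xIFNRs animals is not given in the sources used here. The same 6 Wild-type libraries serve both comparisons with Wild-type, so these are not independent of each other.

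Library totals ran from 42157790 to 57814587 counts and no pair of libraries was a duplicate. Kidney identity was clear from 6 proximal tubule markers, whose summed level was 8271 to 13168 CPM. The 4 receptor genes all rose in Dp16 against Wild-type with a median log2 fold of 0.68. In Dp16 2xIFNRs against Dp16 all 4 had log2 folds below 0 with a median of -0.61, and 3 passed in edgeR and 4 in DESeq2. This is the direction the genotype labels give. In Dp16 2xIFNRs against Wild-type 1 of the 4 still passed as higher, and the median was 0.14. The summed level of 6 adrenal markers reached 81.9 CPM (counts scaled to the library total) in 1 Wild-type library against a Wild-type median of 2.99, and 10.5 CPM in 1 Dp16 library. The Dp16 and Dp16 2xIFNRs medians were lower, 0.955 and 0.945 CPM, with ranges that overlapped Wild-type. The 3 adrenal markers tested had median log2 folds against Wild-type of -2.13 and -3.88, with 0 and 1 called lower in edgeR. DESeq2 called 0 and 2 of 4 lower. Each library was therefore left out in turn, which does not address a difference between whole groups. The part of adrenal tissue in the marker differences was not tested. The 9 markers together took 0.00148% to 0.00271% of a library, a small share of each library. In such bulk tissue more cells of a type and more RNA per cell cannot be told apart.

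The tables give levels as counts and as RPKM, reads scaled to gene length and library total, which is the scale on which genes are compared with each other here. In Wild-type kidneys the order of median RPKM was Zbtb46, Itgax, Batf3, Cd209a, Clec10a, Itgae, Clec9a, Flt3 and Siglech, from 0.859 down to 0.0295. The ranges of neighbours in that order overlapped except for Flt3 and Siglech, which were apart. In Dp16 Cd209a stood first with a median of 1.33 RPKM, and in Dp16 2xIFNRs Itgax stood first with 1.43 RPKM. Siglech stood last in all 3 groups, but in Dp16 and Dp16 2xIFNRs its range overlapped that of Flt3. The highest single value of any marker was 2.25 RPKM, for Itgax in 1 Dp16 2xIFNRs library.

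**Figure D1:**
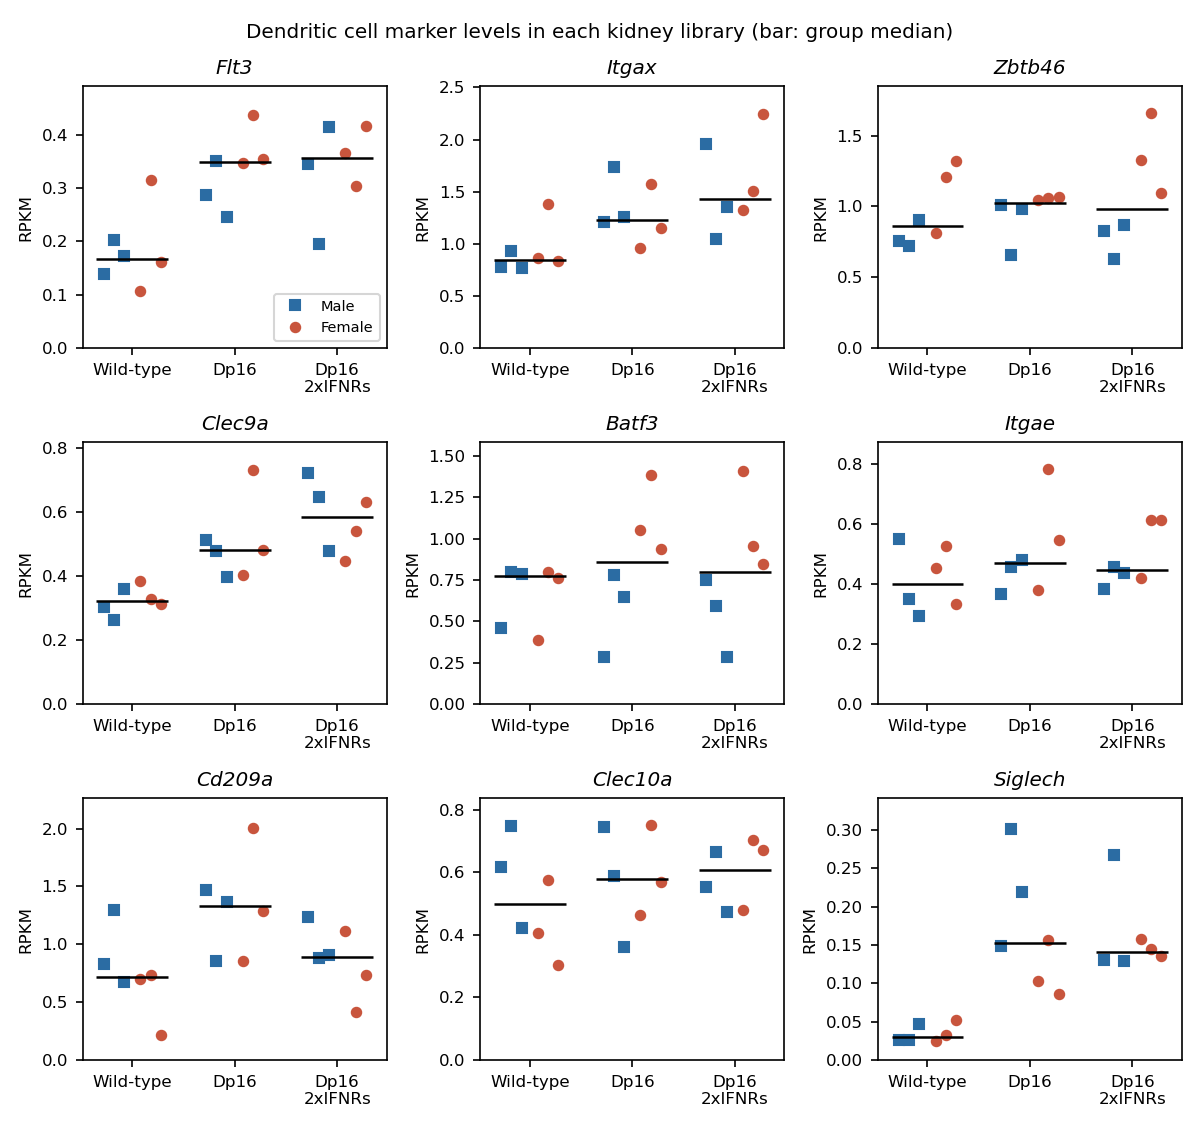
Level of each dendritic cell marker in RPKM (vertical axis, from 0) in the 18 kidney libraries by genotype (horizontal axis), with 1 point per library, squares for males, circles for females and a bar at the group median. All Siglech points of Dp16 (0.0864 to 0.302) and Dp16 2xIFNRs (0.129 to 0.267) lie above all Wild-type points (0.0252 to 0.0523), while Zbtb46, Batf3, Clec10a and Itgae overlap broadly.

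None of the 9 genes lies on chromosome 16. Siglech and Itgax are on chromosome 7, Clec9a on 6, Flt3 on 5, Zbtb46 on 2, Batf3 on 1, Cd209a on 8, and Clec10a and Itgae on 11. In GENCODE M21 (build GRCm38), Siglech (ENSMUSG00000051504.18) spans chr7:55768178-55778925 on the plus strand, Clec9a (ENSMUSG00000046080.17) chr6:129408862-129424763 on the plus strand, Itgax (ENSMUSG00000030789.9) chr7:128129547-128150657 on the plus strand and Flt3 (ENSMUSG00000042817.15) chr5:147330741-147400489 on the minus strand. RefSeq start sites (GRCm38.p6) were found for 7 of 9 markers, all but Clec10a and Itgae. The 250 bases before the start are shown for the 4 markers that passed the test in at least 1 comparison, to show the sequence in front of the genes whose RNA rose. Each is written 5′ to 3′ on the strand of its gene, with AP-1 motif matches in capitals: Siglech at chr7:55767934-55768183 (plus), Clec9a at chr6:129408612-129408861 (plus), Itgax at chr7:128129300-128129549 (plus) and Flt3 at chr5:147400490-147400739 (minus).
Siglech: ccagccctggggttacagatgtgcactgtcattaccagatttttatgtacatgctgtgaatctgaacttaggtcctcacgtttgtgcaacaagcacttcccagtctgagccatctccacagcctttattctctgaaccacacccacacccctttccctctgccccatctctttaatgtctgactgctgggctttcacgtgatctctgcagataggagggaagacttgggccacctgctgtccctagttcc
Clec9a: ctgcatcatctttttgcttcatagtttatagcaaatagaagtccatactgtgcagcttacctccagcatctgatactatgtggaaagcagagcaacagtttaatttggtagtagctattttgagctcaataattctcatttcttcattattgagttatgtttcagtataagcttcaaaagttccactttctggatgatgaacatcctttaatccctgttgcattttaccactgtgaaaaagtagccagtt
Itgax: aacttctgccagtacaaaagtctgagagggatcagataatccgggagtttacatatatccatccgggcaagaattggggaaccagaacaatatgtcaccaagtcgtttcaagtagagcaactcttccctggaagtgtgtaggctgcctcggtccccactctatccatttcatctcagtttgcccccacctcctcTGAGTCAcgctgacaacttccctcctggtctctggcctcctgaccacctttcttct
Flt3: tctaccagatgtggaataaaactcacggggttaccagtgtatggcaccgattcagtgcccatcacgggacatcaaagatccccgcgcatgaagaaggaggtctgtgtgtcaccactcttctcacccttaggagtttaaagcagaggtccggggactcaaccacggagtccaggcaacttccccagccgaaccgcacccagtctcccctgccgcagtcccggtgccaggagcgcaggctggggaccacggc
The search covered both strands of these windows for 3 motifs: GAAANNGAAA, the core of the interferon-stimulated response element, GGAANNGAAA, a composite site of ETS and IRF factors, and TGANTCA, the AP-1 site. The interferon core was found in 0 of 7 markers' windows and in 2.98% of 32851 RefSeq windows of the same length. The composite was likewise in 0 of 7 against 2.30%. AP-1 was in 2 of 7, Itgax and Zbtb46, against 6.75%. The Zbtb46 window, chr2:181424389-181424638 (minus), lies inside the GENCODE span of the gene, chr2:181387762-181459426, and not before its 5′ end. The Batf3 window, chr1:191098164-191098413 (plus), likewise lies inside the span of Batf3, chr1:191097847-191108945. A match is a run of letters and not a shown binding site, and the lack of one says only that these letters are not in this window.

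Siglech codes for a sialic acid-binding lectin on the surface of mouse plasmacytoid dendritic cells, and it showed the largest difference of the 9 markers in both comparisons with Wild-type. Siglech measured 0.0252, 0.0295 and 0.0523 RPKM as the lowest, median and highest of the 6 Wild-type libraries, which is 4 to 9 counts per library. In Dp16 the same 3 values were 0.0864, 0.152 and 0.302 RPKM (14 to 54 counts), and in Dp16 2xIFNRs 0.129, 0.140 and 0.267 RPKM (22 to 37 counts). Every Dp16 and every Dp16 2xIFNRs library lay above every Wild-type library. The log2 fold against Wild-type was 2.18 ± 0.35 in Dp16 (SE, n = 6 per group, 4.53-fold, edgeR quasi-likelihood test with Benjamini-Hochberg adjusted p = 0.00116). In Dp16 2xIFNRs the log2 fold against Wild-type was 2.14 ± 0.35 (4.41-fold, edgeR adjusted p = 0.00132). By p, Siglech ranked 68 of 17575 genes in the first comparison and 73 in the second. Its Wild-type libraries all lay below the minimum count of 10 of the filter. It was therefore tested only because of its higher counts in Dp16 and Dp16 2xIFNRs, which limits what its rank and calls can show. The call held without each library in turn, with log2 folds of 1.98 to 2.38 in Dp16 and 1.96 to 2.35 in Dp16 2xIFNRs. The sums behind these folds are small, 37 counts over the Wild-type group, 166 over Dp16 and 160 over Dp16 2xIFNRs. On log2(RPKM + 0.1), where the pseudocount exceeds the Wild-type level, the log2 fold fell to 0.95 and 0.93.

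Genes near Siglech on chromosome 7 had smaller differences. The 13 tested genes within 2 Mb on either side had log2 folds of -0.34 to 0.32 in Dp16 and -0.69 to 0.79 in Dp16 2xIFNRs against Wild-type. None of these 13 was called. Near Clec9a, 38 tested genes had log2 folds of -0.92 to 1.17 and -0.99 to 1.66, wider than Clec9a itself (0.59 and 0.79). Of these 38, 2 and 3 were called. Near Itgax 9 and 6 of 106 were called and near Flt3 1 and 1 of 32, beside 4.23% and 4.79% of all tested genes. Looking at neighbours was chosen after the values of the markers were seen.

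Flt3, Itgax and Zbtb46 are shared by dendritic cell types: Flt3 is the receptor for the growth factor that drives dendritic cell development, Itgax is CD11c, an integrin chain that renal macrophages also carry, and Zbtb46 is a transcription factor of conventional dendritic cells that endothelium also expresses. Flt3 measured 0.108, 0.167 and 0.316 RPKM as lowest, median and highest in Wild-type, 0.247, 0.349 and 0.438 RPKM in Dp16, and 0.195, 0.357 and 0.416 RPKM in Dp16 2xIFNRs. All 6 libraries of each other group exceeded the Wild-type median, but 1 Wild-type female, replicate 5, stood at 0.316 RPKM and 1 Dp16 2xIFNRs male at 0.195 RPKM, so the ranges overlapped. The log2 fold of Flt3 was 0.84 ± 0.24 in Dp16 (edgeR adjusted p = 0.0518) and 0.85 ± 0.24 in Dp16 2xIFNRs (edgeR adjusted p = 0.0447), nearly the same size on either side of the threshold. Without Wild-type replicate 5 the log2 folds were 1.04 and 1.05 and both passed (edgeR adjusted p = 0.0149 and 0.0121). In Dp16 2xIFNRs the call also held without replicate 3 of that group (edgeR adjusted p = 0.0278), but without any 1 of the 10 other libraries it was lost, with adjusted p of 0.0507 to 0.119.

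Itgax measured 0.764, 0.847 and 1.38 RPKM as lowest, median and highest in Wild-type, 0.961, 1.23 and 1.74 RPKM in Dp16, and 1.05, 1.43 and 2.25 RPKM in Dp16 2xIFNRs. Again 1 Wild-type library reached into the range of the other groups, whose libraries all lay above the Wild-type median. Itgax rose in Dp16 2xIFNRs by a log2 fold of 0.73 ± 0.18 (edgeR adjusted p = 0.0267). In Dp16 its log2 fold was 0.48 ± 0.18 and did not pass (edgeR adjusted p = 0.158). The call in Dp16 2xIFNRs was lost, leaving 1 library out, when that library was replicate 1, 2, 4 or 6 of Wild-type or replicate 1 or 5 of Dp16 2xIFNRs, with adjusted p of 0.0526 to 0.0779. The direct test of Dp16 2xIFNRs against Dp16 gave a log2 difference of 0.24 with a 95% interval of -0.14 to 0.62 for Itgax, so the 2 genotypes were not shown to differ. Zbtb46, the most abundant of the 9 in Wild-type, measured 0.718, 0.859 and 1.32 RPKM there, 0.656, 1.03 and 1.06 RPKM in Dp16 and 0.632, 0.982 and 1.66 RPKM in Dp16 2xIFNRs. The 3 groups overlapped over most of their length. Its log2 folds against Wild-type were 0.01 ± 0.15 and 0.10 ± 0.15 (edgeR adjusted p = 0.989 and 0.769), with 95% intervals of -0.30 to 0.32 and -0.20 to 0.41.

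Clec9a, Batf3 and Itgae mark type 1 conventional dendritic cells: Clec9a is a lectin that senses exposed actin of dead cells, Batf3 a transcription factor the lineage needs, and Itgae is CD103, an integrin chain that some tissue T cells also carry. Clec9a measured 0.263, 0.321 and 0.384 RPKM as lowest, median and highest in Wild-type, 0.397, 0.480 and 0.732 RPKM in Dp16, and 0.446, 0.585 and 0.721 RPKM in Dp16 2xIFNRs. No Wild-type library reached the lowest library of either other group, which holds for 2 of 9 markers (Clec9a and Siglech) in each comparison, beside 1.06% and 1.04% of all tested genes. None of the 9 lay entirely below Wild-type in either comparison, beside 0.239% and 0.529%. Clec9a rose in Dp16 2xIFNRs by a log2 fold of 0.79 ± 0.18 (1.73-fold, edgeR adjusted p = 0.0136). This call held without each of 12 libraries in turn, with log2 folds of 0.71 to 0.86. In Dp16 the log2 fold of Clec9a was 0.59 ± 0.18 (1.51-fold) and did not pass in edgeR (adjusted p = 0.0690), although it did in DESeq2 (adjusted p = 0.0479). The direct difference between Dp16 2xIFNRs and Dp16 was 0.20 with a 95% interval of -0.17 to 0.57. Exons of Clec9a share 184 bases with those of Clec1b on the same strand, and Clec1b held 217 counts over all libraries beside 1418 for Clec9a.

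Batf3 measured 0.388, 0.775 and 0.799 RPKM as lowest, median and highest in Wild-type, 0.282, 0.858 and 1.39 RPKM in Dp16, and 0.287, 0.801 and 1.41 RPKM in Dp16 2xIFNRs. Batf3 spread widely in all groups on 12 to 63 counts per library, and the groups overlapped. Its log2 folds of 0.22 ± 0.33 and 0.15 ± 0.33 did not pass (edgeR adjusted p = 0.809 and 0.867). Itgae measured 0.293, 0.402 and 0.551 RPKM in Wild-type, 0.367, 0.469 and 0.782 RPKM in Dp16, and 0.385, 0.446 and 0.614 RPKM in Dp16 2xIFNRs. The Itgae ranges overlapped, and its log2 folds of 0.22 ± 0.20 and 0.17 ± 0.20 did not pass (edgeR adjusted p = 0.643 and 0.698). Haspin lies inside Itgae on the opposite strand, shares 0 exonic bases with it and held 3666 counts in all.

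Cd209a and Clec10a are lectins of type 2 conventional and monocyte-derived dendritic cells, and macrophages can also carry Clec10a. Cd209a measured 0.219, 0.715 and 1.30 RPKM as lowest, median and highest in Wild-type, 0.854, 1.33 and 2.00 RPKM in Dp16, and 0.418, 0.893 and 1.23 RPKM in Dp16 2xIFNRs. Dp16 libraries lay highest and 3 of 6 exceeded every Wild-type library, while no Dp16 2xIFNRs library exceeded the Dp16 median. The log2 fold against Wild-type was 0.82 ± 0.31 in Dp16 (edgeR unadjusted p = 0.0153, adjusted p = 0.150) and 0.23 ± 0.31 in Dp16 2xIFNRs (edgeR adjusted p = 0.756). Neither passed, and none of 22 alternatives called either. Cd209a also had the largest direct difference between Dp16 2xIFNRs and Dp16, a log2 fold of -0.60 ± 0.31 with a 95% interval of -1.24 to 0.04 (edgeR unadjusted p = 0.0657, adjusted p = 0.850). Clec10a measured 0.305, 0.498 and 0.748 RPKM in Wild-type, 0.361, 0.578 and 0.751 RPKM in Dp16, and 0.473, 0.609 and 0.702 RPKM in Dp16 2xIFNRs. The Clec10a groups overlapped, with log2 folds of 0.15 ± 0.23 and 0.17 ± 0.23 (edgeR adjusted p = 0.810 and 0.742). Both have close relatives that counting could mix with them: Mgl2 beside Clec10a (5343 and 1307 counts over all libraries) and Cd209b to Cd209g beside Cd209a (9 to 731 counts each, 1337 for Cd209a).

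As a group, 1 of 9 markers rose in Dp16 against Wild-type (Siglech) and 0 fell by edgeR, where 4.23% of all tested genes passed, 3.17% higher and 1.06% lower. At an unadjusted edgeR p under 0.05, 5 were higher and 0 lower, beside 10.5% of all tested genes higher and 6.59% lower. DESeq2 called 3 higher and 0 lower, beside 4.07% of all genes higher in DESeq2. In Dp16 2xIFNRs against Wild-type 4 of 9 rose (Siglech, Clec9a, Itgax and Flt3) and 0 fell by edgeR, where 4.79% of all tested genes passed, 3.17% higher and 1.61% lower. The same 4 had an unadjusted edgeR p under 0.05, with 0 lower, beside 10.5% of all tested genes higher and 7.66% lower. DESeq2 called 4 higher and 0 lower, beside 4.38% of all genes higher in DESeq2. All 9 log2 folds were above 0 in both comparisons, with a median of 0.48 in Dp16 and 0.23 in Dp16 2xIFNRs, against medians over all tested genes of -0.01 and 0.01. Of all tested genes, 47.7% and 51.5% had a log2 fold above 0. Zbtb46 counts here at 0.01 in Dp16, and its sign changed under some alternatives. Between Dp16 2xIFNRs and Dp16, 0 of 9 had an unadjusted edgeR p under 0.05, beside 2.46% of all tested genes higher and 2.24% lower. None of the 9 passed in edgeR (0 of 9) or in DESeq2 (0 of 9), where 0.0171% of all tested genes passed in edgeR, all of them lower and 0% higher, and 0.0197% were higher in DESeq2. The 3 genes that passed in edgeR were all among the 4 receptor genes. No marker separated these 2 groups, while 0.0341% of all genes lay entirely higher and 0.0455% entirely lower in Dp16 2xIFNRs. For Siglech the 95% interval of the log2 difference between Dp16 2xIFNRs and Dp16 was -0.69 to 0.61, and for Flt3 it was -0.47 to 0.50. Differences within these intervals were not excluded.

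**Figure D2:**
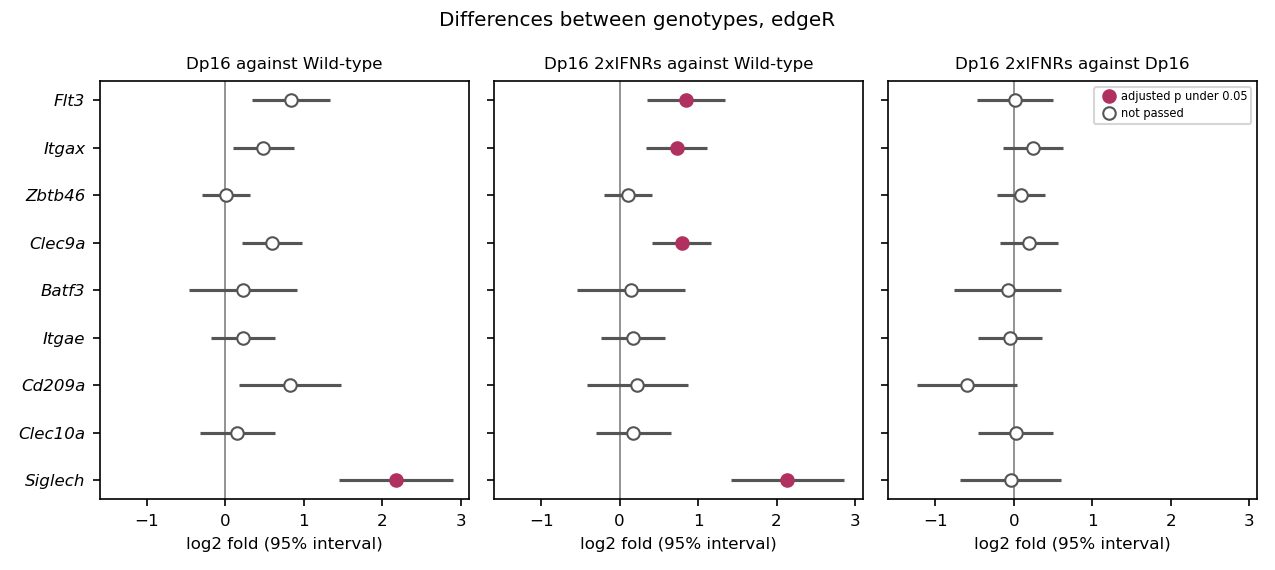
Log2 fold of each dendritic cell marker (horizontal axis) with its 95% interval, from 1 edgeR fit of 18 libraries, in the 3 genotype comparisons; filled points have an adjusted p under 0.05. Siglech stands at 2.18 and 2.14 against Wild-type and at -0.04 between Dp16 2xIFNRs and Dp16, where Cd209a lies lowest at -0.60.

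The balance between dendritic cell types was compared as log2 ratios of CPM within each library. The scaling of libraries enters these ratios only through the prior count, which shrinks ratios of low counts such as those of Siglech. The ratio of Clec9a to Cd209a, type 1 against type 2, had a median of 0.12 in Wild-type, -0.28 in Dp16 and 0.53 in Dp16 2xIFNRs. Wild-type libraries covered the widest range, -1.12 to 1.55, and the other groups lay within it. The mean difference between Dp16 2xIFNRs and Dp16 was 0.77 (exact two-sided permutation test within sex, n = 6 per group, p = 0.025, adjusted p = 0.06 over 6 comparisons), while Dp16 minus Wild-type was -0.30 (exact permutation adjusted p = 0.522) and Dp16 2xIFNRs minus Wild-type was 0.47 (exact permutation adjusted p = 0.398). The ratio of Siglech to Flt3 had a median of -1.98 in Wild-type, -1.31 in Dp16 and -1.39 in Dp16 2xIFNRs. Its mean was higher than in Wild-type by 0.99 in Dp16 (exact permutation p = 0.03, adjusted p = 0.06) and by 0.99 in Dp16 2xIFNRs (exact permutation p = 0.015, adjusted p = 0.06). The smallest p this test allows is 0.005, and none of the 6 comparisons passed after adjustment.

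Genes that go with each dendritic cell type were counted in lists that the 9 markers do not enter. Of 10 type 1 genes, 2 rose in Dp16 (Gcsam by a log2 fold of 1.38 ± 0.34 and Naaa by 0.32 ± 0.09, edgeR adjusted p = 0.0258 and 0.0466), and the median was 0.39. In Dp16 2xIFNRs 3 of 10 rose, with a median of 0.32: Naaa, a lysosomal lipid amidase, Wdfy4, which cross-presentation needs, by 0.69 ± 0.19 and Tlr3, a sensor of double-stranded RNA, by 0.33 ± 0.09 (edgeR adjusted p = 0.0396, 0.0423 and 0.0486). Xcr1, the chemokine receptor most specific to type 1 cells, had log2 folds of 0.46 ± 0.28 and 0.32 ± 0.28 and did not pass (the smaller edgeR adjusted p was 0.447).

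Of 8 tested type 2 genes, out of 10 listed, 2 rose in Dp16 with a median of 0.49 and 3 in Dp16 2xIFNRs with a median of 0.51. Itgam, the integrin chain CD11b shared with macrophages and neutrophils, rose by 0.94 ± 0.21 and 0.86 ± 0.21 (edgeR adjusted p = 0.0138 and 0.0217), and Mgl2, a lectin, by 0.51 ± 0.14 and 0.49 ± 0.14. Sirpa, an inhibitory receptor that binds CD47, rose in Dp16 2xIFNRs by 0.42 ± 0.10 (edgeR adjusted p = 0.0212). Irf4, the transcription factor of the type 2 lineage, had log2 folds of 0.29 ± 0.21 and 0.42 ± 0.21 that did not pass. Mean levels in males and females were 64.8 and 92.5 CPM for Sirpa, against 1.15 and 1.70 CPM for Irf4. The part of other kidney cells in the Sirpa difference was not tested.

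Of 11 tested plasmacytoid genes, out of 12 listed, 2 rose in each comparison, with medians of 0.43 in Dp16 and 0.31 in Dp16 2xIFNRs. Irf7, an interferon-induced regulator found in most cells, rose by 0.55 ± 0.11 and 0.40 ± 0.11 (edgeR adjusted p = 0.00577 and 0.0372). Bst2, also interferon-induced and widely expressed, rose in Dp16 by 0.48 ± 0.11 and Tlr9, a sensor of DNA, in Dp16 2xIFNRs by 0.88 ± 0.23 (edgeR adjusted p = 0.0190 and 0.0305). Ccr9, a homing receptor, had log2 folds of 1.14 ± 0.39 and 0.82 ± 0.39, and Spib, a transcription factor that B cells also use, 0.67 ± 0.49 and 0.06 ± 0.49. Tcf4, the master regulator of the lineage, which many other cells express, had log2 folds of -0.02 ± 0.09 and 0.09 ± 0.09. None of these 3 passed in either comparison, with 0.107 as the smallest edgeR adjusted p. Whether the rise of Siglech reflects more plasmacytoid cells was not tested.

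Genes of maturation and of development were counted in the same way. Of 12 tested maturation and migration genes, out of 14 listed, 1 rose in each comparison, Il4i1, an amino acid oxidase of mature dendritic cells and macrophages, by 1.10 ± 0.26 and 1.01 ± 0.26 (edgeR adjusted p = 0.0195 and 0.0288). Ccr7, the receptor that guides mature dendritic cells to lymph nodes, had log2 folds of 0.51 ± 0.34 and 0.54 ± 0.34 and did not pass. Of 12 tested development genes, out of 13, Ikzf1, a lymphoid and myeloid transcription factor, rose in both comparisons by 0.56 ± 0.13 and 0.53 ± 0.13. Csf2ra, a chain of the GM-CSF receptor, passed in Dp16 (0.34 ± 0.09), and Csf2rb, another chain of it, and Spi1, a myeloid transcription factor, passed in Dp16 2xIFNRs (0.59 ± 0.14 and 0.50 ± 0.14). In the direct test of Dp16 2xIFNRs against Dp16 none of these 3 passed (smallest edgeR adjusted p = 0.850). Id2, a repressor that type 1 cells need and tubule cells also express, fell in Dp16 by 0.44 on the log2 scale (SE 0.10, edgeR adjusted p = 0.0167). Flt3l, the ligand of Flt3, had log2 folds of 0.04 ± 0.31 and 0.15 ± 0.31, with edgeR adjusted p of 0.969 and 0.852. Between Dp16 2xIFNRs and Dp16 none of the 5 dendritic cell lists had a call in edgeR or DESeq2, and 3 development genes alone had an unadjusted edgeR p under 0.05.

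Markers of other cell types were counted in the same way. Of 16 macrophage and monocyte markers, 8 rose and 1 fell in Dp16 with a median log2 fold of 0.53, and 10 rose in Dp16 2xIFNRs with a median of 0.55. Their summed level ran from 107 to 168 RPKM in Wild-type, 186 to 248 RPKM in Dp16 and 174 to 246 RPKM in Dp16 2xIFNRs, without overlap with Wild-type. Of 10 T cell markers, 4 rose in Dp16 (median 0.89) and 2 in Dp16 2xIFNRs (median 0.39), and their summed level ran from 4.36 to 8.66 RPKM in Wild-type, 8.54 to 17.9 RPKM in Dp16 and 8.20 to 14.2 RPKM in Dp16 2xIFNRs, with a narrow overlap. No macrophage or T cell marker was at 0 counts in a whole group. B cell markers passed in 0 of 6 in each comparison in edgeR and DESeq2 (2 and 0 higher at an unadjusted p under 0.05), with medians of 0.62 and 0.17. Lymph node stroma markers passed in 0 of 4 tested in each comparison in edgeR (2 and 2 higher at an unadjusted p under 0.05, 1 and 0 in DESeq2), with medians of 0.64 and 0.47. Endothelium markers, which bear on Zbtb46, passed in 0 of 9 in each comparison in edgeR, with medians of 0.13 and 0.20. At an unadjusted edgeR p under 0.05, 3 and 6 of them were higher and 0 lower, and DESeq2 called 0 and 1 higher. Their summed level ran from 169 to 281 RPKM in Wild-type, 206 to 301 RPKM in Dp16 and 216 to 333 RPKM in Dp16 2xIFNRs, so the groups overlapped. Proximal tubule markers passed in 0 of 6 in each comparison in edgeR, with medians of -0.18 and -0.02, while 3 and 1 were lower at an unadjusted p under 0.05 and 1 and 0 in DESeq2. The part of macrophages, T cells and endothelium in the marker differences was not tested, and Itgax, Clec10a and Itgam in particular are not exclusive to dendritic cells.

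**Figure D3:**
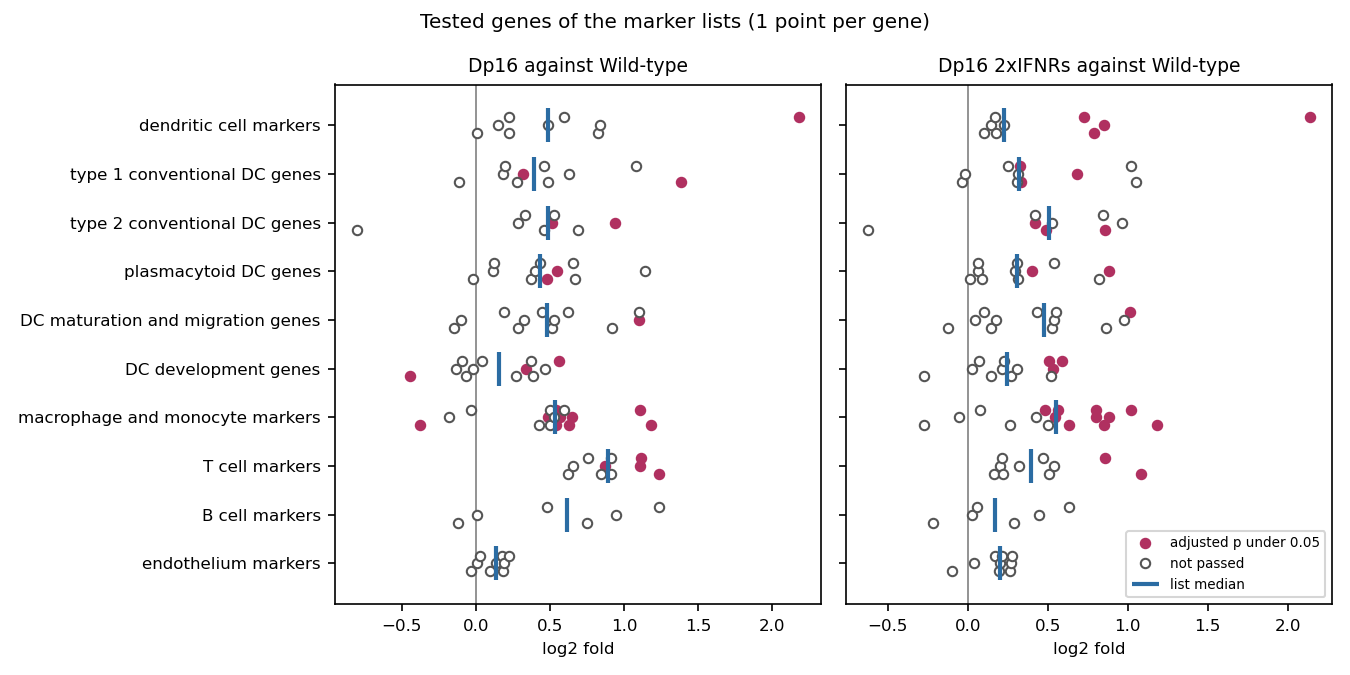
Log2 fold against Wild-type (horizontal axis) of each tested gene of the 9 dendritic cell markers and of 9 lists of related genes and cell type markers, with 1 point per gene, filled where the edgeR adjusted p is under 0.05, and a bar at the list median. Siglech is the point farthest right in both panels (2.18 and 2.14), and most points of the macrophage and T cell lists lie above 0.

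Sex was a term of the fit, and 38.8% of all tested genes differed in edgeR, 19% higher and 19.7% lower in males. Among the 9 markers 1 passed: Zbtb46 was lower in males by a log2 fold of -0.40 ± 0.12 (n = 9 per sex, edgeR adjusted p = 0.0122). Zbtb46 measured 0.632, 0.829 and 1.01 RPKM as lowest, median and highest in males and 0.815, 1.09 and 1.66 RPKM in females, and 0 of 9 males exceeded the female median. Of 9 endothelium markers, 7 were also lower in males, with a median log2 fold of -0.25. Other lists had like medians: -0.26 for type 1 genes, -0.24 plasmacytoid, -0.28 maturation and -0.33 T cell. Medians of NK cell, B cell and neutrophil markers were above 0 (0.27, 0.04 and 0.36). Once genotype and sex were removed, Zbtb46 had a Pearson r of 0.65 with the proximal tubule marker Lrp2 over 18 libraries. With the endothelium markers Cdh5 and Pecam1 r was 0.37 and 0.16. The part of endothelium, tubule or other cells in the Zbtb46 difference was not tested. Batf3 had a larger but less certain value of -0.51 ± 0.27 (edgeR adjusted p = 0.145), with 0 of 9 males above the female median. Siglech and Cd209a pointed the other way, with log2 values of 0.54 ± 0.27 and 0.44 ± 0.25 that did not pass (edgeR adjusted p = 0.120 and 0.180). No marker's genotype difference was shown to depend on sex: 0 of 27 interaction tests passed in edgeR, where 0.0171%, 0.00569% and 0% of all tested genes passed in the 3 comparisons. At an unadjusted edgeR p under 0.05 the markers again gave 0 of 27, beside 7.85%, 3.53% and 3.85% of all tested genes. DESeq2 was not run for the interaction.

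**Figure D4:**
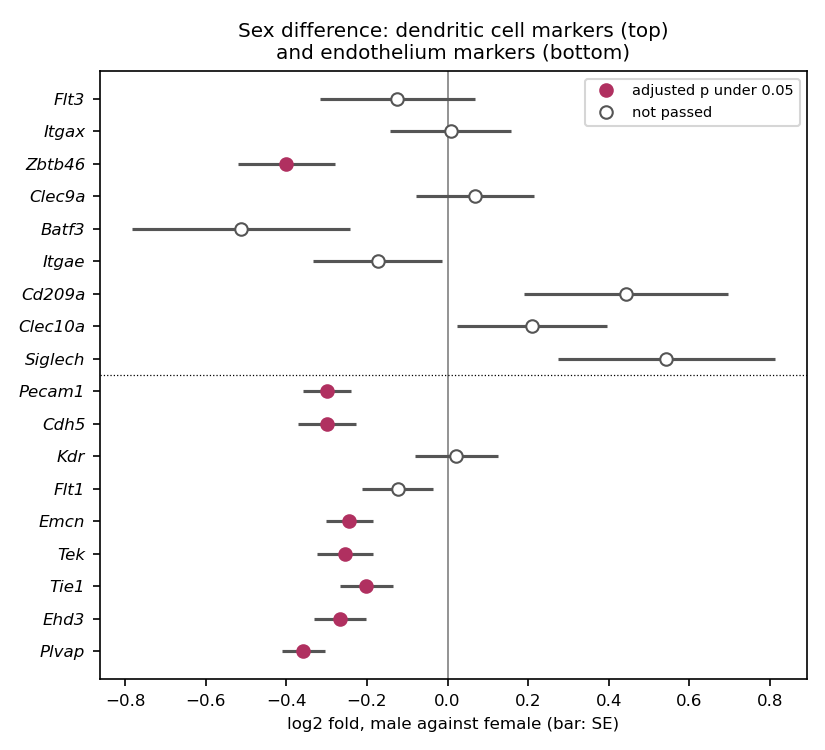
Log2 fold of males against females (horizontal axis, bars are 1 SE) for the 9 dendritic cell markers above the dotted line and 9 endothelium markers below it, filled where the edgeR adjusted p is under 0.05. Zbtb46 (-0.40) is the filled marker, and 7 of 9 endothelium genes are filled on the same side of 0.

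Once genotype and sex were removed, the markers moved together only in part across libraries. Over 36 pairs the highest Pearson r of residual log2 CPM (18 libraries) was 0.60, between Flt3 and Itgax, and the lowest was -0.46, between Cd209a and Siglech. The gene most like Itgax among abundant genes was Mpeg1, a pore-forming protein of macrophages and dendritic cells (r = 0.85), and the gene most like Cd209a was Ly86, a partner of a B cell and myeloid receptor (r = 0.84). The others were closest to Gm28661 for Flt3 (0.82), Dgat1 for Clec9a (0.87), Srpk2 for Zbtb46 (0.87), Phf14 for Batf3 (0.80), Traf4 for Siglech (0.84), Trmt10a for Clec10a (0.82) and Gpihbp1, a capillary endothelial protein, for Itgae (0.86). Each is the highest of about 13853 values over libraries that also share depth and composition, and is given as a description without a test.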

How the data were processed

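TRIzol RNA, strand-specific polyA libraries and paired NovaSeq reads were used, per the labels' protocols. The submitters' processing notes name bcl2fastq, FastQC 0.11.5, HISAT2 2.1.0, SAMtools 1.5, HTSeq 0.6.1 and build GRCm38. The authors deposited raw counts per gene and, for the same 55385 genes, RPKM values, and neither the strand setting of the counting nor the making of the RPKM is given in the sources used here.

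The counts of all 18 libraries entered 1 edgeR 4.0.16 quasi-likelihood fit (R 4.3.3) with group and sex, TMM scaling and a filter by group (minimum count 10, minimum total 15). This kept 17575 genes and removed 37810. P values are two-sided and Benjamini-Hochberg adjusted over all tested genes, and a gene passes below 0.05. SEs of log2 folds are approximate, from the fold and the square root of its F statistic. Between animals the biological coefficient of variation was 16.8%, and library totals were 42157790 to 57814587 counts. Each library has its own sample number within its group, while some libraries of a group share both sex and age. Libraries were treated as separate animals. A further label number is shared across genotypes by 11 of 18 libraries (5 numbers), its meaning is not given in the sources used here, and p values measure the spread between these libraries. Ratios used log2 CPM with a prior count of 2 and were permuted within sex in all 400 ways (scipy 1.17.1).

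Alternatives were RLE scaling, no filter, a stricter filter (average log2 CPM from 0 up), a fit without sex, age in weeks, a block on sample numbers, DESeq2 1.42.0, 2 groups alone, limma-voom (limma 3.58.1) with the last label number as random block, limma-trend on log2(RPKM + 0.1), and each library left out. Steps were tested on simulated data. The markers and lists were chosen with earlier results of these data known. Named genes are the 9 markers, up to 3 genes of smallest p per list with defining markers, the gene most like each marker by residual correlation, overlapping or closely related genes and 4 receptor genes. In the lists, genes past the threshold are named beyond that rule, after their values were seen.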

Additional observations from a re-analysis of the deposited data

Results flagged for a closer look

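In 3 of 33 sets of 6 libraries examined, 1 library stood apart from the other 5 by a gap test at the 95% level, a test that chance alone meets in about 1 of 20 sets. Zbtb46 in Dp16 replicate 5, a male, had a log2 CPM of 2.17, the lowest of its group, with the next library at 2.69. Siglech in Dp16 2xIFNRs replicate 3, a male with the smallest library total (42157790 counts), had a log2 CPM of -0.033, the highest of its group, with the next at -0.90. The log2 ratio of Siglech to Flt3 in the same library was 0.29, the highest of its group, with the next at -1.17. The calls of Siglech held without each library in turn.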

How the results depend on the processing

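No called difference changed direction under the alternatives run; log2 folds near 0 that were not called (Zbtb46 against Wild-type, Batf3 in Dp16 2xIFNRs against Wild-type, 6 of 9 markers between Dp16 2xIFNRs and Dp16) took either sign. The count of markers called in Dp16 against Wild-type was 1, and it was 2 with age as a covariate, 2 with the last label number as a random block (limma-voom), 2 with limma-trend on log2(RPKM + 0.1) and 3 in DESeq2. Leaving out each library gave 1 to 2, with 2 without Wild-type replicate 5. In Dp16 2xIFNRs against Wild-type the count was 4, and it was 2 without the sex covariate and 2 to 4 when each library was left out, with 2 without Wild-type replicate 1, 2, 4 or 6 or replicate 1 or 5 of Dp16 2xIFNRs. It was also below 4 with no filter, age as a covariate, 2 groups alone or the replicate block, where Flt3 was not called. The stricter filter, which did not test Siglech, likewise gave fewer than 4. Between Dp16 2xIFNRs and Dp16 the count was 0 under all alternatives run. Calls depend on an adjustment over all genes of a fit, and among the alternatives the share of all genes called is given for DESeq2 alone. For the others a change in the count of markers cannot be told apart from a change in calls over all genes. Siglech was called in both comparisons with Wild-type in all 21 alternatives that tested it and Clec9a in Dp16 2xIFNRs in all 22, while Flt3 was called in 6 of 22 and 7 of 22 and Itgax in 1 of 22 and 15 of 22, in Dp16 and Dp16 2xIFNRs. The filter at an average log2 CPM of 0 removed Siglech and Batf3.

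With animals permuted without regard to sex, the ratio of Clec9a to Cd209a in Dp16 2xIFNRs against Dp16 (0.77) and that of Siglech to Flt3 in Dp16 2xIFNRs against Wild-type (0.99) passed by the exact permutation test (adjusted p = 0.0390 for both). The latter ranged from 0.70 to 1.11 when each library was left out and passed without Wild-type replicate 6 (exact permutation adjusted p = 0.03).

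The sample numbers did not pair the animals: 10 of 18 same-numbered pairs had correlated deviations over 0.1, in a range of -0.42 to 0.53, and 6 of 36 lookups found the own number as the best match. All 10 were pairs of the same sex, and every pair of opposite sex was below 0. Once sex was removed, no pair of the same sex was over 0.1, and 7 pairs of opposite sex were. With the replicate block the counts were 2, 3 and 0 in the 3 comparisons. The cause of these changes was not tested. Depth limits Siglech and Batf3 most, with 4 to 54 and 12 to 63 counts per library.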
